A study of Homo sapiens with 7 samples.

Results

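The 10 genes described here encode regulators of mitochondrial apoptosis and caspase inhibitors: BCL2, BCL2L1 and MCL1, which protect the mitochondrial outer membrane, BAK1, which permeabilises it, BCL2L11, BID and BAD, which carry only the BH3 motif, and XIAP, BIRC2 and BIRC3, which belong to the inhibitor of apoptosis (IAP) family. They were taken by gene symbol, and each symbol matched 1 of the 58174 genes of the expression table. RNA-seq was done on the total RNA of Huh-7, an established human hepatocellular carcinoma line, 72 h after siRNA was transfected. The 3 control libraries (siC) came from cells given a control siRNA and the 4 siIGF2BP1 libraries from cells given siRNA directed at IGF2BP1, an RNA-binding protein that stabilises many of its target mRNAs. The labels give both groups the same culture medium and harvest time and no other treatment. The model is limited to transient depletion by an siRNA pool in 1 cell line, and the labels do not say whether replicates were separate cultures, so that p-values measure the spread between these libraries, which may be technical.

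Proteins of the BCL2 family decide whether the mitochondrial outer membrane stays intact. Anti-apoptotic members such as BCL-XL (the product of BCL2L1) and MCL1 hold BH3-only proteins and the effectors BAK and BAX in check; when BH3-only proteins prevail, the effectors form pores, cytochrome c is released, and caspase-9 becomes active. XIAP binds and inhibits caspases directly, whereas cIAP1 and cIAP2 (the products of BIRC2 and BIRC3) are ubiquitin ligases of the TNF receptor complexes. Hepatocytes are known to depend on BCL-XL and MCL1 for survival, and BID, once cut by caspase-8, links death receptors to mitochondria in these cells.

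IGF2BP1 is known for shielding mRNAs from microRNAs, and let-7 and miR-122 are the microRNA families considered for this liver-derived line, so the 3′UTR of the main coding transcript of each gene was searched for the 7-base matches to their seeds. The study that reported these libraries found less let-7 and more miR-122 in Huh-7 than in an ovarian cancer line. The let-7 match, CTACCTC, was found in 1 of the 10 genes, BCL2L1. It is shown with the microRNA because BCL2L1 is also the most abundant of the 10 mRNAs. Capitals mark the seed (bases 2 to 8) in the microRNAs and the matching bases in the mRNA.
let-7a-5p: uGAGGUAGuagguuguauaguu
miR-122-5p: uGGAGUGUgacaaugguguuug
BCL2L1 3′UTR: agccccagggtcttccCTACCTCaggcagg
The BCL2L1 stretch lies at chr20:31664991-31665020 on the minus strand of GRCh38, in the 3′UTR, where the match begins at base 945 of 1491. The same letters occur in 9.91% of 18649 human 3′UTRs and in 9.62% of the 2652 whose length is 0.8 to 1.25 times that of BCL2L1. The miR-122 match, ACACTCC, was in 0 of the 10 genes and in 8.25% of all 3′UTRs. Only the sense strand of the mRNA was searched, the motifs do not overlap, and a match of letters does not show that the site is used.

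IGF2BP1 itself was measured first. It stood at 81.9, 80.4 and 84.4 FPKM (mapped fragments scaled to gene length and library size) in the siC libraries and at 15.6, 15.7, 16.6 and 15.3 FPKM in the siIGF2BP1 libraries. The mean of 15.8 ± 0.583 FPKM (SD, n = 4) was 19.2% of the control mean of 82.2 ± 2.03 FPKM (SD, n = 3), and its log2 change of −2.37 passed the test (limma adjusted p = 1.16e-05, threshold 0.01). Depth ranged from 12826550 to 33212205 reads on genes, and 14839 genes averaging 1 FPKM or more were tested. All 8 hepatocyte markers exceeded 1 FPKM, with summed levels of 5663 to 6941 FPKM in siC and 6115 to 6284 FPKM in siIGF2BP1. Of 4 markers each, leukocyte genes summed to 147 to 162 against 113 to 129 FPKM, nearly all from LYZ with PTPRC, CD68 and CD3E near 0, fibroblast genes to 1.29 to 1.91 against 1.92 to 2.21 FPKM, and endothelial genes to 2.59 to 3.07 against 2.86 to 3.30 FPKM with KDR at 0; whether these markers have a part in the results was not tested. In bulk RNA, fewer cells of a kind and less RNA per cell cannot be told apart.

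One control library stood apart. In siC replicate 3, the difference of a gene's log2 level from the mean of the other libraries of its group fell with the GC content of its longest transcript (Spearman's rho across genes −0.43), while siC replicates 1 and 2, whose comparison includes siC replicate 3, had 0.43 and 0.30 and the siIGF2BP1 libraries −0.39 to 0.26. The −0.39 belonged to siIGF2BP1 replicate 2, whose deviations from its group mean correlated with those of siC replicate 3 at 0.20. Genes are not independent replicates, and these coefficients describe the libraries. Against siC replicates 1 and 2, the median gene of the GC-poorest of 10 equal classes was higher by 0.29 on the log2 scale in siC replicate 3 and that of the GC-richest class lower, at −0.35. The log2 change of each tested gene named below is therefore also given without siC replicate 3. That arrangement has 2 control libraries and keeps siIGF2BP1 replicate 2, so it does not free the comparison of a GC trend. The part of GC content in the results was not tested beyond removing its trend.

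**Figure D1:**
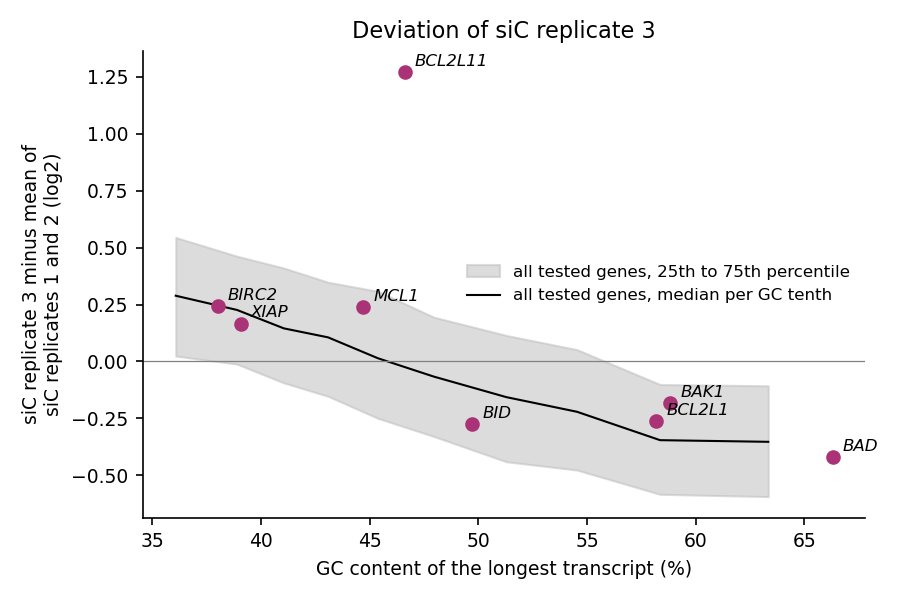
Departure of siC replicate 3 from the mean of siC replicates 1 and 2 (log2, vertical axis) against the GC content of the longest transcript in percent (horizontal axis), as medians over 10 equal GC classes of all tested genes (line, with a band from the lower to the upper quartile) and for the 8 tested genes of the family (points). The line falls from 0.29 to −0.35, and BCL2L11, at 1.27, lies far above it.

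At the threshold of 0.01, 0 of the 8 tested genes of the family passed the test of siIGF2BP1 against siC. The share over all tested genes was 3.93% (2.28% lower and 1.65% higher). This was limma on log2(FPKM + 0.1), with Benjamini-Hochberg adjustment over all genes tested. The test on recovered read counts (voom and limma) also passed 0 of 8, with 5.67% of all genes called. At an unadjusted p below 0.05 stood 3 of the 8, BCL2L1 and BIRC2 on the lower side and BID on the higher, where 14.8% of all genes were lower and 11% higher, or 25.9% in all. Libraries of the 2 groups did not overlap for 2 of the 8, BIRC2 (lower) and BID (higher), where 15.1% of all tested genes were lower and 11.9% higher without overlap, or 27% in all. Among the 8, 5 log2 changes were negative and 3 positive, with a median of −0.12 beside −0.017 over all genes, and their median absolute change was 0.25 beside 0.19. Without siC replicate 3 the median of the 8 was −0.060 beside −0.031 over all genes. Without siC replicate 3, 1 of 8 passed, BID, with 10.3% of all genes called (6.67% lower and 3.6% higher). In that arrangement 5 of 8 were without overlap, BCL2L1, BAD and BIRC2 lower and BCL2L11 and BID higher, against 49.9% of all genes (29.3% lower and 20.6% higher). BID also passed with the GC trend removed (1 of 8, 6.09% of all genes) and at a threshold of 0.05 (1 of 8, 11.5% of all genes). With array weights, which give deviating libraries less weight, and with voom without siC replicate 3, BCL2L1, BCL2L11 and BID passed, 3 of 8 against 18.5% and 22.4% of all genes. These counts were not tested against the shares, and with 8 genes they cannot show the family to be like or unlike the rest.

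**Figure D2:**
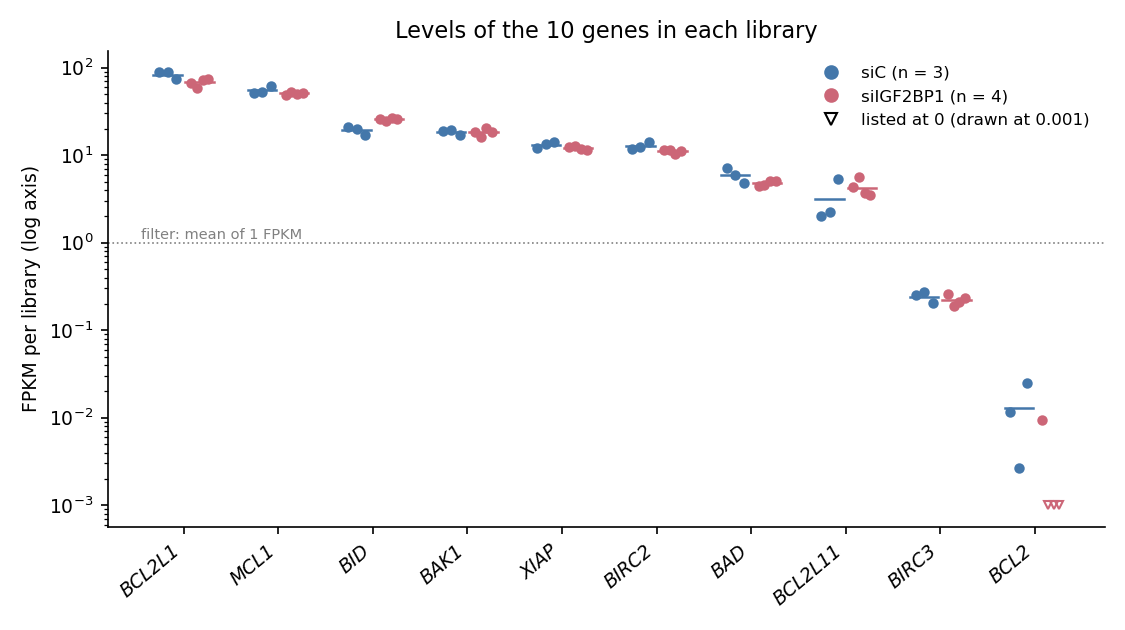
Level of each of the 10 genes in every library, in FPKM on a logarithmic axis, with siC and siIGF2BP1 libraries side by side and a short line at each group mean. BCL2L1 and MCL1 lie highest, at 49.0 to 88.5 FPKM, BIRC3 and BCL2 lie below the 1 FPKM filter, and the 3 siIGF2BP1 libraries with 0 BCL2 reads are open triangles at the foot of the axis, with no mean line for that group.

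BCL2L1 and MCL1 carried nearly all of the anti-apoptotic mRNA of these cells. BCL2L1 (GRCh38, chr20:31664452-31723989, minus strand) encodes BCL-XL, and also the pro-apoptotic splice form BCL-XS, which counts per gene do not separate. Its level was 88.3, 88.5 and 73.7 FPKM in the siC libraries and 67.2, 59.1, 73.2 and 74.6 FPKM in the siIGF2BP1 libraries. All 4 siIGF2BP1 libraries lay below siC replicates 1 and 2, and 1 of them lay above siC replicate 3. The means were 83.5 ± 8.46 (SD, n = 3) and 68.5 ± 7.04 FPKM (SD, n = 4), or 82.0% of control, for a log2 change of −0.29 (SE 0.11, 95% interval −0.54 to −0.029) that missed the threshold (limma adjusted p = 0.152). Without siC replicate 3 it was −0.37 (limma adjusted p = 0.036). In siC, BCL2L1 lay above 96.8% of the tested genes, and 3208 to 9394 reads per library stood behind these values. The gene overlaps ABALON on the opposite strand, and the strand setting of the counting is not given in the sources used here.

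MCL1 (chr1:150560895-150579738, minus strand), a short-lived guardian of mitochondria, was the next in level. It was measured at 51.2, 52.9 and 61.4 FPKM in siC and at 49.0, 52.9, 49.9 and 51.7 FPKM in siIGF2BP1, and the groups overlapped, with siC replicate 3 the highest. The log2 change of −0.11 (SE 0.078, 95% interval −0.30 to 0.072) was not past the threshold (limma adjusted p = 0.428), and it was −0.033 without siC replicate 3 (limma adjusted p = 0.632). MCL1 also has a short pro-apoptotic splice form that is not separated here, and ADAMTSL4 on the opposite strand and ADAMTSL4-AS1 on the same strand overlap it, so that reads on the latter would not be set apart by strand.

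BCL2, the founding member of the family, was barely detected. Between 0 and 4 reads fell on it in any library: 3, 1 and 4 in siC and 2, 0, 0 and 0 in siIGF2BP1. Pooled, 8 reads gave 0.0101 FPKM in siC (exact 95% Poisson interval 0.00434 to 0.0198) and 2 reads gave 0.00269 FPKM in siIGF2BP1 (0.000326 to 0.00973). The intervals overlap and cover counting error only, so a difference in BCL2 was not detectable at this depth. Of the other anti-apoptotic genes, BCL2A1 and BCL2L10 reached at most 1 and 2 reads in a library, and BCL2L2, which encodes BCL-w, stood at 4.87 ± 0.554 FPKM in siC (SD, n = 3) and 4.72 ± 0.499 FPKM in siIGF2BP1 (SD, n = 4), for a difference of −0.043 on the log2 scale (limma adjusted p = 0.857) that was −0.12 without siC replicate 3 (limma adjusted p = 0.467).

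BAK1 (chr6:33572547-33580293, minus strand) encodes the effector BAK, which sits in the outer membrane of mitochondria. Its level was 18.8, 19.4 and 16.8 FPKM in siC and 18.6, 16.4, 20.7 and 18.4 FPKM in siIGF2BP1, with full overlap, and GGNBP1 overlaps the gene on the opposite strand. The log2 change was 0.0083 with a 95% interval of −0.21 to 0.23 (limma adjusted p = 0.973), and it was −0.053 without siC replicate 3 (limma adjusted p = 0.714). BAX, the other main effector, had 15.6 ± 1.49 (SD, n = 3) and 15.7 ± 1.90 FPKM (SD, n = 4), for a difference of −0.00062 on the log2 scale (95% interval −0.27 to 0.27, limma adjusted p = 0.998), and −0.069 without siC replicate 3 (limma adjusted p = 0.714). The sign of both changes depended on the scaling or the libraries used. BOK, a less studied relative, stood at 5.48, 5.16 and 5.36 FPKM in siC and at 3.99, 3.43, 3.69 and 4.41 FPKM in siIGF2BP1. The BOK groups did not overlap, and its log2 change of −0.45 (SE 0.096) had a limma adjusted p of 0.0266, short of the threshold, with −0.45 and 0.0279 when siC replicate 3 was left out.

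Of the BH3-only genes of the family, BID and BCL2L11 had higher mean levels and BAD a lower mean level in siIGF2BP1 libraries. BID (chr22:17734138-17774770, minus strand), the substrate of caspase-8, was at 21.1, 19.9 and 16.9 FPKM in siC and at 26.1, 24.9, 26.8 and 26.3 FPKM in siIGF2BP1. Each siIGF2BP1 library exceeded each siC library. The means of 19.3 ± 2.15 (SD, n = 3) and 26.0 ± 0.823 FPKM (SD, n = 4), 135% of control, gave a log2 change of 0.43 (SE 0.085, 95% interval 0.23 to 0.63), unadjusted p = 0.00131 and limma adjusted p = 0.0202. Without siC replicate 3 the change was smaller, 0.34, and passed the threshold (limma adjusted p = 0.00475). With each library's GC trend removed, the limma adjusted p was 0.00674. No annotated gene overlaps BID, and 1035 to 2839 reads fell on it per library.

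BCL2L11 (chr2:111119378-111168444, plus strand) encodes BIM, which binds all anti-apoptotic members. Its level was 2.04, 2.24 and 5.29 FPKM in siC and 4.33, 5.57, 3.68 and 3.52 FPKM in siIGF2BP1. The first 2 controls lay below every siIGF2BP1 library, and siC replicate 3 lay above 3 of the 4. With all libraries the log2 change was 0.52 (SE 0.34, 95% interval −0.27 to 1.32, limma adjusted p = 0.393); without siC replicate 3 it was 0.95, with a siIGF2BP1 mean at 200% of control and a limma adjusted p of 0.0158. Its departure in siC replicate 3, 1.27 on the log2 scale, was the widest of the 8 genes, at a GC content of 46.6%. From 296 to 696 reads fell on the gene, and MIR4435-2HG overlaps it on the opposite strand.

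BAD (chr11:64269830-64284704, minus strand), whose product is held inactive by survival kinases, was at 7.13, 5.87 and 4.81 FPKM in siC and at 4.46, 4.62, 5.04 and 5.05 FPKM in siIGF2BP1. All 4 siIGF2BP1 libraries lay below siC replicates 1 and 2, but siC replicate 3 lay among them. The log2 change was −0.29 (SE 0.13, 95% interval −0.60 to 0.027, limma adjusted p = 0.229), and −0.43 without siC replicate 3 (limma adjusted p = 0.0256). With 112 to 321 reads per library, BAD had the fewest reads of the 8 tested genes, and it overlaps the coding gene GPR137 on the opposite strand.

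In the wider group of 8 BH3-only genes, 6 were tested and 0 passed. Of the 6 changes, 5 were positive, and the median log2 change of the 6 was 0.43 beside −0.017 over all genes. No plan singled out this role, which is described more fully than the others. Median log2 changes of the other roles ran from −0.21 (caspases) to −0.00062 (effectors). Of the 5 caspases, 2 were lower and 1 higher without overlap, beside 15.1% and 11.9% of all tested genes. The groups did not overlap, with siIGF2BP1 higher, for BID, BMF and PMAIP1, 3 of 6, where 11.9% of all tested genes were higher without overlap. Without siC replicate 3, 4 of the 6 changes were positive and 2 negative, with a median of 0.37 beside −0.031 over all genes. In that arrangement 2 of the 6 passed on the higher side, beside 3.6% of all genes. Without overlap, 4 were then higher and 1 lower, beside 20.6% and 29.3% of all genes. BMF, a sensor of cell attachment, was at 5.81, 6.62 and 5.11 FPKM in siC and 8.23, 8.08, 8.42 and 8.02 FPKM in siIGF2BP1 (log2 change 0.49, limma adjusted p = 0.018), and passed without siC replicate 3 (0.39, limma adjusted p = 0.00851). PMAIP1, which encodes NOXA, was chosen for mention after its values were seen. It was at 0.963, 1.03 and 1.01 FPKM in siC and at 1.43, 1.10, 1.69 and 1.38 FPKM in siIGF2BP1. The log2 change of PMAIP1 was 0.43 (limma adjusted p = 0.201), or 0.43 and 0.191 without siC replicate 3. BBC3 is named to complete the tested genes of this role. Its log2 change was 0.035 (limma adjusted p = 0.953), or −0.054 and 0.910 without siC replicate 3. BIK and HRK were below the filter, with at most 8 and 14 reads in a library, and both had lower means in siIGF2BP1. BIK stood at 0.297 FPKM in siC and 0.192 FPKM in siIGF2BP1. HRK stood at 0.0599 and 0.0202 FPKM, without overlap. Neither was tested.

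**Figure D3:**
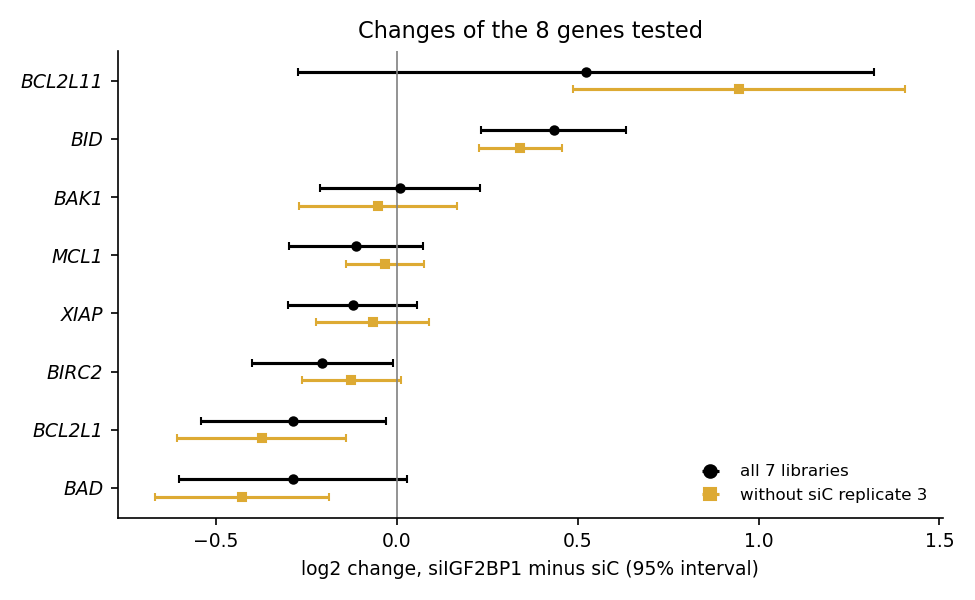
Log2 change (siIGF2BP1 minus siC) of the 8 tested genes with 95% intervals, from all 7 libraries and without siC replicate 3; the vertical line marks 0. Every interval but those of BCL2L1, BID and BIRC2 crosses 0 with all libraries, and BCL2L11 moves furthest, from 0.52 to 0.95, when siC replicate 3 is left out.

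XIAP and BIRC2, the IAPs with a clear level, stood close to one another. XIAP (chrX:123859712-123913972, plus strand), the direct caspase inhibitor, was at 12.2, 13.3 and 14.3 FPKM in siC and 12.4, 12.9, 11.7 and 11.6 FPKM in siIGF2BP1, with overlap. Its log2 change of −0.12 (95% interval −0.30 to 0.057) did not pass the test (limma adjusted p = 0.374), and without siC replicate 3, the highest of the 7, it was −0.067 (limma adjusted p = 0.499). BIRC2 (chr11:102347211-102378670, plus strand), which encodes cIAP1, was at 11.7, 12.5 and 14.3 FPKM in siC and 11.4, 11.4, 10.4 and 11.1 FPKM in siIGF2BP1.

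Every siIGF2BP1 library lay below every siC library for BIRC2, though siC replicate 1 and the nearest siIGF2BP1 library were 11.7 and 11.4 FPKM. The means of 12.8 ± 1.33 (SD, n = 3) and 11.1 ± 0.460 FPKM (SD, n = 4) gave a log2 change of −0.21 (SE 0.082, 95% interval −0.40 to −0.012, limma adjusted p = 0.17), and −0.13 without siC replicate 3 (limma adjusted p = 0.162). BIRC3 (chr11:102317484-102339403, plus strand), the neighbour of BIRC2 that encodes cIAP2 and is induced by NF-kappaB, lay below the filter and is overlapped by an unnamed gene on the opposite strand. It had 41, 66 and 21 reads in siC and 35, 27, 21 and 23 in siIGF2BP1, or 0.252 FPKM pooled (exact 95% Poisson interval 0.210 to 0.299) against 0.223 FPKM (0.183 to 0.270), so a difference was not detectable at this depth.

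Among other IAPs, BIRC5, which encodes the mitotic protein survivin, was the most abundant, at 46.7 ± 4.72 FPKM in siC (SD, n = 3) and 48.0 ± 2.72 FPKM in siIGF2BP1 (SD, n = 4). On the log2 scale it differed by 0.043 (limma adjusted p = 0.81), and by −0.043 when siC replicate 3 was left out (limma adjusted p = 0.633). NAIP, BIRC7 and BIRC8 were below the filter, with BIRC8 at 0 reads in every library.

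FPKM is scaled to 1 length per gene, such as 4446 bases for BID and 2212 for BAK1. That length need not be the length of the transcript expressed, and GC trends differ between libraries. Levels, ratios and shares between genes are therefore only rough. In siC the order was BCL2L1, MCL1, BID, BAK1, XIAP, BIRC2, BAD, BCL2L11, BIRC3 and BCL2, and it was the same by means in siIGF2BP1. In siC the ranges of BID and BAK1, of XIAP and BIRC2, and of BAD and BCL2L11 overlapped. Compared within each of the 3 siC libraries, BID stood above BAK1 in 3, XIAP above BIRC2 in 2 and BAD above BCL2L11 in 2. In siIGF2BP1 the one overlapping pair was BAD and BCL2L11.

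Ratios within a library compare genes without a common scale factor, and those given here were picked after values were seen and carry no test. BCL2L1 stood to BID at 4.19, 4.44 and 4.36 in siC and at 2.58, 2.38, 2.73 and 2.84 in siIGF2BP1. The ratio in siIGF2BP1 was 60.8% of that in siC, the groups lay far apart, and siC replicate 3 lay between the other 2 controls. BID to BAK1 was 1.05 ± 0.0610 in siC (SD, n = 3) and 1.41 ± 0.0913 in siIGF2BP1 (SD, n = 4), without overlap. BCL2L1 to MCL1 overlapped, at 1.72, 1.67 and 1.20 against 1.37, 1.12, 1.47 and 1.44, as did XIAP to BIRC2, at 1.04, 1.07 and 0.999 against 1.09, 1.13, 1.13 and 1.04.

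The FPKM of BCL2, BCL2L1 and MCL1 summed to 139.5, 141.4 and 135.2 in siC and to 116.2, 112.0, 123.1 and 126.3 in siIGF2BP1. The FPKM of BCL2L11, BID and BAD summed to 30.2, 28.0 and 27.0 in siC and to 34.8, 35.1, 35.6 and 34.8 in siIGF2BP1. The quotient of these sums was 4.89 ± 0.239 (SD, n = 3) in siC and 3.41 ± 0.184 (SD, n = 4) in siIGF2BP1. Neither sum nor the quotient overlapped between groups. Of single tested genes 27% did not overlap either, but that share is no measure for sums or quotients. In siC, BID made 19.3 of the 28.4 FPKM of the second sum and BCL2L1 83.5 of the 138.7 FPKM of the first. The quotient is therefore not separate from the BCL2L1 to BID ratio given above. The FPKM of XIAP, BIRC2 and BIRC3 summed to 26.3 ± 2.34 (SD, n = 3) and 23.4 ± 0.964 (SD, n = 4), with overlap. Sums and quotients carry no test. With all 6 anti-apoptotic and all 8 BH3-only genes the quotient was 3.92 ± 0.134 and 2.70 ± 0.125. In these wider sums, BID made 52.5% of the FPKM of the 8 BH3-only genes in siC and 56.6% in siIGF2BP1, and BCL2L1 made 58.1% and 55.1% of the FPKM of the 6 anti-apoptotic genes. Sums of mRNA levels say nothing of the protein balance.

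**Figure D4:**
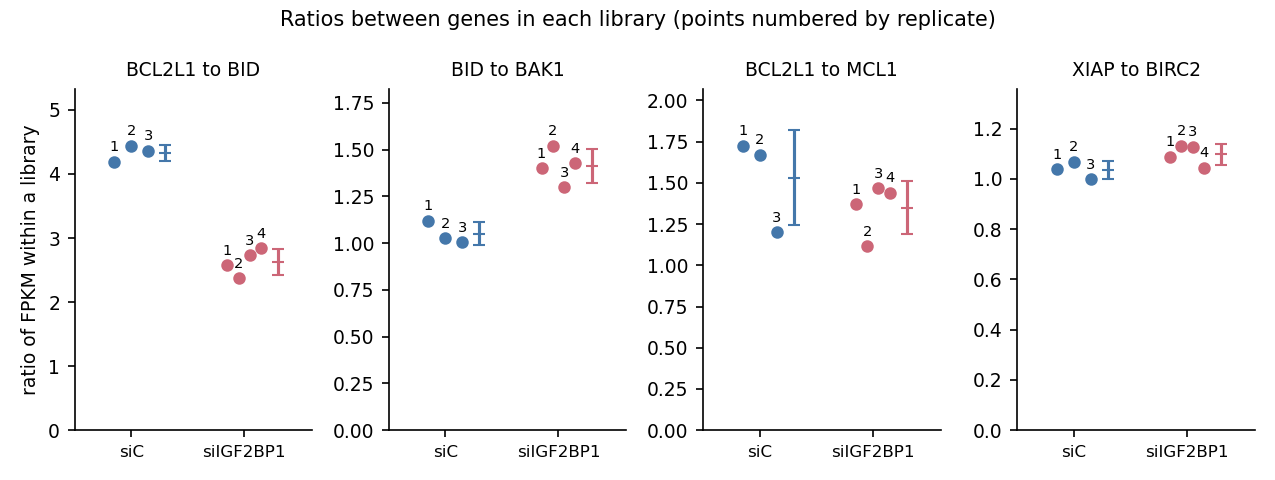
Ratios between genes in each library, with siC and siIGF2BP1 points numbered by replicate, bars at the mean ± SD and a separate linear axis for each ratio. The BCL2L1 to BID ratio lies in separate ranges, 4.19 to 4.44 in siC and 2.38 to 2.84 in siIGF2BP1, whereas BCL2L1 to MCL1 and XIAP to BIRC2 overlap.

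Downstream of the family, 52 further apoptosis genes were examined and 41 were tested. Of these 1, CASP2, passed the threshold on the lower side and 0 on the higher, beside 2.28% and 1.65% of all genes. At an unadjusted p below 0.05, 6 had a negative and 6 a positive change, beside 14.8% and 11% of all genes. The median log2 change was −0.065, or −0.088 without siC replicate 3. The test on recovered read counts also called 1, CASP2. This initiator caspase, tied to DNA damage, was at 8.35, 8.69 and 8.96 FPKM in siC and at 6.29, 6.74, 6.14 and 6.35 FPKM in siIGF2BP1. No libraries overlapped, and on the log2 scale CASP2 differed by −0.44 (SE 0.062, limma adjusted p = 0.00647). CASP2 passed in 1 of the 7 fits that leave out a library, that without siC replicate 3 (−0.41, limma adjusted p = 0.00467).

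CASP6, the most abundant caspase examined, had 18.9 ± 1.61 (SD, n = 3) and 18.8 ± 0.814 FPKM (SD, n = 4), for a difference of −0.0097 on the log2 scale (limma adjusted p = 0.958) whose sign depended on the scaling. Without siC replicate 3 it was −0.082 (limma adjusted p = 0.292).

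Of 8 mitochondrial and apoptosome genes, 7 were tested and 0 passed. CYCS, which encodes cytochrome c, stood at 49.7 ± 11.8 (SD, n = 3) and 40.1 ± 4.63 FPKM (SD, n = 4), for a difference of −0.29 on the log2 scale (limma adjusted p = 0.308). Its siC libraries were at 41.8, 44.1 and 63.3 FPKM, and without siC replicate 3, the highest, the difference was −0.11 (limma adjusted p = 0.496). AIFM1, an oxidoreductase of the intermembrane space, was at 55.6, 55.9 and 35.1 FPKM in siC and at 45.9, 40.8, 44.2 and 47.5 FPKM in siIGF2BP1. Its change was −0.10 (limma adjusted p = 0.773) with all libraries and −0.32 (limma adjusted p = 0.0154) without siC replicate 3, the lowest of the 7.

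Of 11 death receptor and adaptor genes, 9 were tested and 0 passed. FADD, the adaptor that recruits caspase-8, had 34.6 ± 2.53 (SD, n = 3) and 32.7 ± 2.44 FPKM (SD, n = 4), for a difference of −0.084 on the log2 scale (limma adjusted p = 0.595), and of −0.14 without siC replicate 3 (limma adjusted p = 0.217). TNFRSF10A, a receptor for the ligand TRAIL, had 4.84 ± 0.970 (SD, n = 3) and 3.64 ± 0.459 FPKM (SD, n = 4), for a difference of −0.39 on the log2 scale (limma adjusted p = 0.184). Without siC replicate 3, the lowest control at 3.72 FPKM, TNFRSF10A differed by −0.56 (limma adjusted p = 0.0182) and the groups no longer overlapped. FAS reached at most 3 reads in a library.

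In the NF-kappaB group, 6 of 7 genes were tested and 0 passed. NFKBIA, which encodes the inhibitor of NF-kappaB and was the most abundant, had 21.0 ± 0.748 (SD, n = 3) and 22.2 ± 0.633 FPKM (SD, n = 4), for a difference of 0.079 on the log2 scale (limma adjusted p = 0.435), and of 0.055 without siC replicate 3 (limma adjusted p = 0.408). TNFAIP3, the deubiquitinase A20 and a target of NF-kappaB, was at 2.71, 3.02 and 3.06 FPKM in siC and at 4.03, 3.67, 4.14 and 3.84 FPKM in siIGF2BP1. The TNFAIP3 groups did not overlap, and the log2 change of 0.41 had a limma adjusted p of 0.0232, with 0.44 and 0.0135 when siC replicate 3 was left out.

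**Figure D5:**
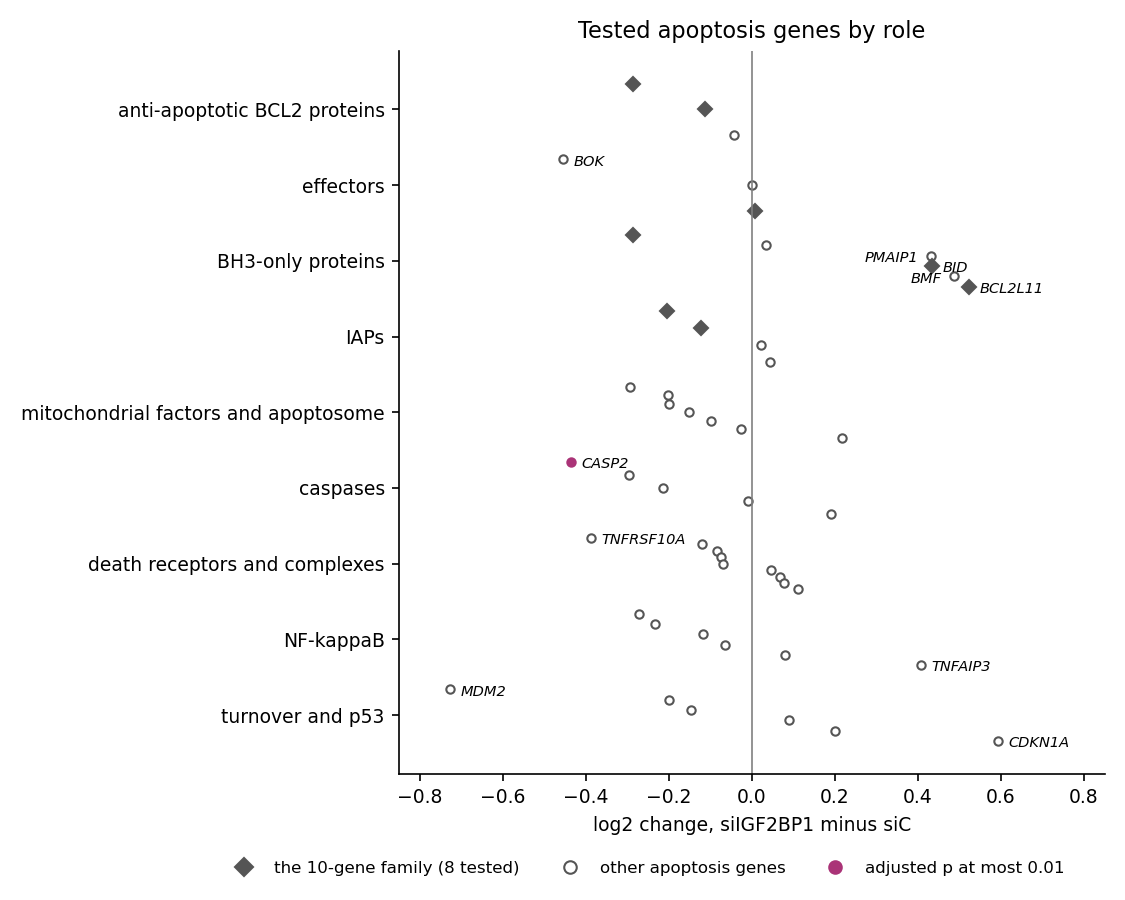
Log2 change (siIGF2BP1 minus siC, horizontal axis) of 49 tested apoptosis genes by role, with genes of the 10-gene family as diamonds, other genes as open circles and the gene past the threshold as a filled circle; genes with an absolute change over 0.35 are named. CASP2 (−0.44) passes, and BH3-only genes include 4 on the far right, with log2 changes of 0.43 to 0.52. BBC3 and BAD, also BH3-only, lie at 0.035 and −0.29.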

How the data were processed

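Expression was measured by rRNA-depleted, strand-specific RNA-seq of 3 siC and 4 siIGF2BP1 libraries. Per the submitters' processing notes, cutadapt 1.14, HISAT2 2.1.0, SAMtools 1.5, featureCounts 1.5.3 and edgeR 3.18.1 were used with build hg38. The authors deposited FPKM values per gene and library, scaled by TMM-normalised library sizes. The table also holds the authors' fold changes, p-values and FDR for this comparison, which were not used. With the gene lengths, FPKM gave whole reads for 100.0% of values (tolerance 0.01), from which depth was taken.

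Genes averaging 1 FPKM or more (14839) were tested on log2(FPKM + 0.1) by limma 3.58.1 (R 4.3.3) with a mean-variance trend, two-sided, Benjamini-Hochberg adjusted over all genes tested, threshold 0.01. Fold changes on this scale understate the change of low genes. On data simulated at the depths of these libraries (14820 genes tested), the test recovered 36 of 93 genes changed 2-fold and 87 of 97 changed 4-fold. Voom recovered 71 and 91 of them, and both tests made 0 false calls. The simulation gave every gene the same dispersion (0.02) and held no GC trend or deviating library, so these rates may not hold for the real libraries. Changes smaller than 2-fold, such as those of the family genes, were not simulated. Alternatives covered pseudocount, filters, scaling, voom on recovered reads, array weights, a replicate block, GC trend removal (GC known for 99.1% of tested genes) and each library left out. Beside the family, the genes named in each role are those past the threshold, the most abundant and the one with the widest change; others are marked. Some listed genes are not reported here. The members and lists were chosen with earlier results of these data known. Coordinates, overlaps and 3′UTRs are from GENCODE on GRCh38, and microRNA sequences from RefSeq (GRCh38.p14).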

Additional observations from a re-analysis of the deposited data

Results flagged for a closer look

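In the 4 siIGF2BP1 libraries, 43 levels and ratios were examined for 1 library far from the others (gap to the nearest library over the whole range, above Dixon's 95% critical value), and 2 stood out, where chance alone gives about 2.15. BCL2 had 2 reads in siIGF2BP1 replicate 1 and 0 in the other 3, a gap equal to the whole range (1.0), at a count too low to carry weight. The percent of the FPKM of the 8 BH3-only genes that came from BID was 55.1% in siIGF2BP1 replicate 2, below the other 3, with a gap of 0.871 of the range. The siC group, with 3 libraries, was not examined in this way.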

How the results depend on the processing

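Of the 8 tested family genes, 0 passed at 0.01 with all libraries, 3 with array weights and with voom without siC replicate 3 (chosen after seeing the data) (BCL2L1, BCL2L11 and BID in both), and 1 (BID) with the GC trend removed or at a threshold of 0.05; leaving out 1 library gave 0 to 1, the 1 (BID) without siC replicate 3. The wider list held 1 such gene, but 0 without the filter, 0 without the trend, 2 among protein-coding genes alone, 10 with array weights, 3 with GC removal, 5 at 0.05, 11 with voom without siC replicate 3, and 0 to 3 with 1 library left out, the 3 without siC replicate 3. Over all genes 583 passed, 352 without the filter, 2744 with array weights, 904 with GC removal, 1713 at 0.05, 3317 with voom without siC replicate 3, and 128 to 1521 with 1 library left out, the 1521 without siC replicate 3. The cause of these moves was not tested.

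Deviations of same-numbered libraries correlated at −0.026, −0.12 and −0.11, which gives no sign that replicate numbers pair the libraries. The GC trends of single libraries enter these values, and a weaker pairing beneath them was not tested. With the number as a replicate block, 0 of all genes passed, hence 0 in the family and in the wider list. IGF2BP1 had a log2 change of −2.36 (limma adjusted p = 0.0909). With the block and GC removal together these were also 0, and −2.36 (limma adjusted p = 0.0577). Replicate 4 exists only in siIGF2BP1, so the block takes that library out of the comparison. Few libraries are then left to measure spread, so the block cannot tell a lost change from lost power.

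Near 0, signs turned. BAK1 was −0.031 with array weights, −0.0023 with voom, −0.063 with voom without siC replicate 3, and −0.053 (without siC replicate 3) to 0.065 with 1 library left out. BAX was 0.029 after median centring, 0.049 after quantile normalisation, 0.033 with GC removal and −0.069 to 0.075 with 1 library left out. BIRC5 was −0.032 with array weights, −0.046 with voom without siC replicate 3 and −0.043 to 0.090 with 1 library left out. CASP6 was 0.020 after median centring, 0.032 after quantile normalisation, 0.017 with the block and −0.082 to 0.027 with 1 library left out. BCL2L2 ran from −0.12 to 0.038 and AIFM1 from −0.32 to 0.014 with 1 library left out. A filter of 5 FPKM removed BCL2L11.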

Other observations

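Genes for protein turnover and p53 signalling, 6 tested, stood beside the family, with 0 past the threshold. MDM2, the ubiquitin ligase of p53, was at 8.87, 9.26 and 15.1 FPKM in siC and at 6.48, 7.72, 5.96 and 5.79 FPKM in siIGF2BP1. The groups did not overlap, and the log2 change of −0.73 (limma adjusted p = 0.0617) became −0.49 without siC replicate 3 (limma adjusted p = 0.031). CDKN1A, whose product halts the cell cycle, was picked after its values were seen. Its level was 1.76 ± 0.278 FPKM in siC (SD, n = 3) and 2.68 ± 0.158 FPKM in siIGF2BP1 (SD, n = 4). These groups did not overlap, and the log2 change was 0.59 (limma adjusted p = 0.0295), or 0.47 and 0.0188 without siC replicate 3. HUWE1, a ubiquitin ligase of MCL1, was at 60.3, 60.3 and 46.5 FPKM in siC and at 49.7, 49.4, 50.8 and 49.9 FPKM in siIGF2BP1. On the log2 scale HUWE1 differed by −0.15 (limma adjusted p = 0.422), and by −0.27 without siC replicate 3 (limma adjusted p = 0.00296).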
